A study of Mus musculus with 5 samples.

Results

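The p53 target genes described here are Trp53, which encodes p53 itself, and Mdm2, Aen, Phlda3, Ccng1, Perp, Zmat3, Trp53inp1, Btg2 and Ei24, targets of p53 that lie outside the cell cycle and BCL2 families. These 10 genes were taken as all of their probe sets on the arrays, and they were chosen from earlier results on the same L-LY29 and H-LY29 arrays, so their differences between the doses are given as a description. A probe set was named for 9 of the 10 genes. Trp53 was not analysed here, because no probe set is named for it in the annotation used. The 9 genes held 18 probe sets, of 45101 on the array, and 17 of the 18 lay above the filter on dim signals.

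RNA came from optic nerves of C57BL/6 mice aged P35 to P45, kept alive as organotypic cultures for 3 days in the presence of LY294002, which inhibits the kinase PI3K. The low dose, L-LY29, is 0.5 µM in the sample labels and was measured on 3 arrays, and the high dose, H-LY29, is 50 µM and was measured on 2 arrays. The methods of the study give a higher low dose for adult nerves, and which was used was not settled here. The labels spell the compound both LY294002 and LY295002, taken here as the same agent, and saline arrays were not analysed here. The sources used here do not give how nerves and mice were divided among arrays, so the spread between arrays may be technical. In bulk RNA of a whole nerve, fewer cells of a type and less RNA per cell cannot be told apart.

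p53 is a transcription factor that accumulates after DNA damage and other stress and binds a pair of adjoining half-sites in the DNA near its targets. Its targets arrest the cell cycle, repair DNA, alter metabolism, kill the cell or feed back on p53, and Mdm2, a ubiquitin ligase that marks p53 for destruction, is the best known of the feedback genes. PI3K acts on this circuit through the kinase Akt, which phosphorylates Mdm2. In white matter, p53 is known for its part in death of oligodendrocytes under stress and in the differentiation of their precursors.

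The promoter windows of the members with a match are shown because p53 half-sites are the feature that a set of p53 targets would be looked up for. RefSeq windows (GRCm38.p6, 250 bases before to 50 bases after the transcript start) were at hand for 6 of the 9 measured genes, in 7 windows, and Perp, Zmat3 and Trp53inp1 had no entry. The 10-base p53 half-site consensus, read on both strands without mismatch, was present in 5 of the 7 windows, those of Mdm2, Ccng1, Aen (the same bases in its 2 overlapping windows) and Ei24, and in 8.36% of 32851 windows of all genes. The windows of Btg2 and Phlda3 held no such match, which says only that these letters are not in this window. With 2 abutting half-sites and at most 1 mismatch, 0.067% of all windows had a match, and Ccng1 was the member that had one, starting 195 bases before the transcript start. Aen matched 2 abutting half-sites with 3 mismatches, 121 bases before the start of its downstream transcript, as did 1.38% of all windows at up to 3 mismatches. Capitals mark the half-site in Mdm2 and Ei24 and the pair of half-sites in Ccng1 and Aen.
Mdm2, chr10:117710709-117711008, minus strand: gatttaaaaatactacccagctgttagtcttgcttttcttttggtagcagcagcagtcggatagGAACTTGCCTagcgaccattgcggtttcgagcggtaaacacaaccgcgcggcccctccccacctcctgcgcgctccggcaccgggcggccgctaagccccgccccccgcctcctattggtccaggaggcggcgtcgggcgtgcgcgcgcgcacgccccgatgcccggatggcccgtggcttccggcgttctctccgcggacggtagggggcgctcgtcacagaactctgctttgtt
Ccng1, chr11:40755237-40755536, minus strand: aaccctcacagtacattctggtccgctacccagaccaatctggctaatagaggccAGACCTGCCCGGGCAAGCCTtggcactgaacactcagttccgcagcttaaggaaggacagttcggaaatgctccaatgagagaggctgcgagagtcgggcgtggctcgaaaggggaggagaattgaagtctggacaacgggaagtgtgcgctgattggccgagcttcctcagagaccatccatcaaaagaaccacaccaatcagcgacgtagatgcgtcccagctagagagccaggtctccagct
Aen, chr7:78895808-78896107, plus strand: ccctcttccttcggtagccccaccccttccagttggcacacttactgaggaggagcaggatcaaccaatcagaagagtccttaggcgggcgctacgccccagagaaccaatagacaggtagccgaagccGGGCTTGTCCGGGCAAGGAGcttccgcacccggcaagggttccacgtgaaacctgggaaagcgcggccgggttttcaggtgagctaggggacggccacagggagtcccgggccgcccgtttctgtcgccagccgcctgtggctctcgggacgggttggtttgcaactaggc
Ei24, chr9:36797285-36797584, minus strand: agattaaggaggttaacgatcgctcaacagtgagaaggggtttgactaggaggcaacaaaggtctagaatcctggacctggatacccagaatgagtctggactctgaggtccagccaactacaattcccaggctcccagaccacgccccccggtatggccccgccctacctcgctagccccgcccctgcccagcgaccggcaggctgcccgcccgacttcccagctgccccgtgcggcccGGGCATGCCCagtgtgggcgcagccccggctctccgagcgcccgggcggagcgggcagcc

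The values are log2 signals, and every difference is L-LY29 minus H-LY29. Over the 27001 probe sets tested, limma called 71.8% different between the doses at an adjusted p under 0.05, 42.9% lower and 28.9% higher in L-LY29, and the doses did not overlap in 81.3%. Signals of arrays of the same dose correlated at r of 0.991 to 0.995, and those of different doses at 0.882 to 0.892. The median signal of an array lay between 5.33 and 5.35 for L-LY29 and between 5.54 and 5.56 for H-LY29. The 24 probe sets of the poly-A controls, RNAs added at sample preparation, averaged 10.22 in L-LY29 and 3.17 in H-LY29, so dose and preparation of the RNA cannot be told apart. The difference of 3′ and 5′ signals was 0.43 in L-LY29 and 0.92 in H-LY29 for actin and -0.13 and 0.69 for Gapdh. The oligodendrocyte markers Mbp and Mobp were bright on every array, between 13.78 and 14.42. Of marker genes tested, limma called 8 higher and 3 lower of 11 of oligodendrocytes, 0 and 3 of 6 of their precursors, 0 and 5 of 9 of astrocytes, 7 and 2 of 9 of microglia, and 4 and 1 of 7 of endothelium. For fibroblasts 8 of 8 were lower, for pericytes 4 of 7, and for proliferation 17 of 19 with 1 higher. For neurons 7 of 8 were higher with 1 lower. Mki67, Ccnb2, Bub1, Tpx2, Ncapg, Birc5 and Rrm2 of proliferation and Kcnj8 of pericytes had L-LY29 means under the filter. Syt1 of neurons had an H-LY29 mean under the filter. These genes passed only through the other dose and could only come out as called, so their direction adds no support. The photoreceptor marker Sag lay between 5.25 and 5.29 on all arrays, and its list had 1 gene above the filter. The part of cell composition and of preparation in the members' differences was not tested.

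Of the 18 probe sets of the p53 targets, 12 were lower on every L-LY29 array than on every H-LY29 array. A further 4 were higher on every L-LY29 array and 2 overlapped. Over all probe sets tested, the doses did not overlap in 81.3%. Of the 17 tested, 11 were called lower and 4 higher, beside the 42.9% and 28.9% of all probe sets. The median difference of the 17 was -0.80, where that of all probe sets was -0.18. Since the genes were chosen on this contrast, nothing is read from these counts or from this median. Taking the brightest probe set of each gene, 7 of 9 genes were lower in L-LY29, and the exceptions were Btg2 and Perp; with equal array medians Ccng1 was at 0.0022. The spread within L-LY29 was small for most of them, with a median SD of 0.09 over probe sets, and it was 1.74 for Perp.

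**Figure D1:**
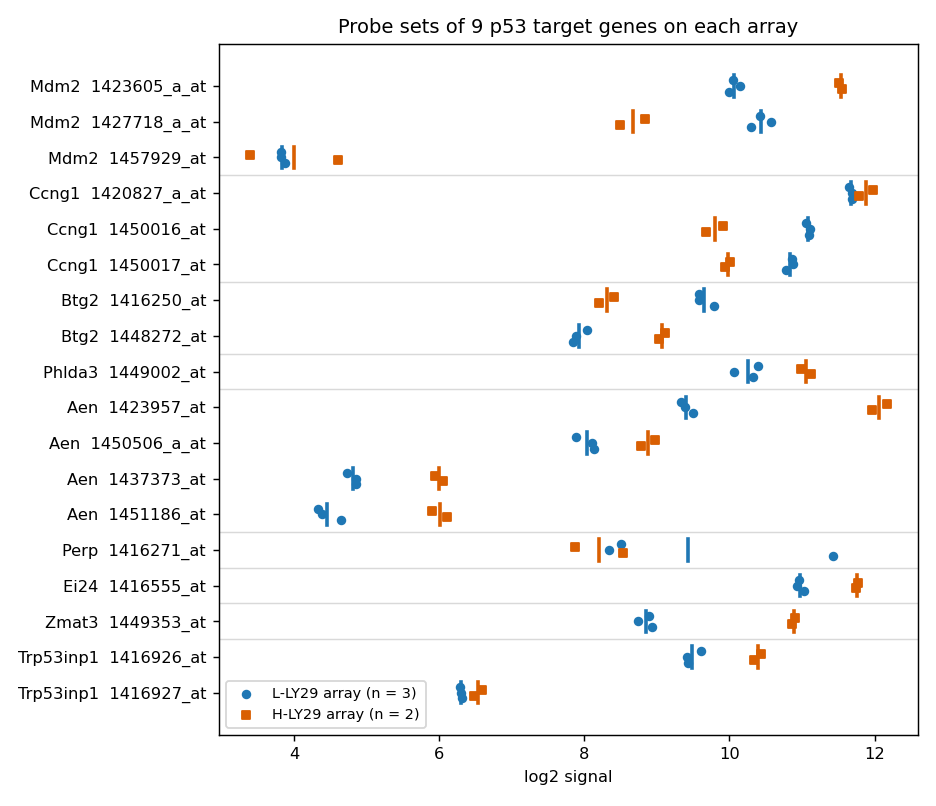
Log2 signal (x axis) of each of the 18 probe sets of 9 p53 target genes (y axis) on the 3 L-LY29 arrays (circles) and the 2 H-LY29 arrays (squares), with a vertical bar at each dose mean. The doses were apart for 16 probe sets, on opposite sides within Mdm2, Ccng1 and Btg2, and for 81.3% of all probe sets tested. Perp had 1 L-LY29 array at 11.43 and the others near 8.

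The feedback regulators came first. Mdm2 was read by 3 probe sets with 3 different source sequences. On 1423605_a_at its signal was 9.99, 10.14 and 10.05 on the L-LY29 arrays and 11.56 and 11.51 on the H-LY29 arrays, a difference of -1.47 (SE 0.06), or 2.77-fold higher in H-LY29. On 1427718_a_at it was 10.29, 10.57 and 10.42 in L-LY29 and 8.50 and 8.84 in H-LY29, a difference of 1.76 (SE 0.14), or 3.39-fold higher in L-LY29. Both were bright and without overlap between doses, so the sign of the difference in Mdm2 depended on the probe set. The third, 1457929_at, lay below the filter at 3.88, 3.82 and 3.82 in L-LY29 and 4.61 and 3.40 in H-LY29, and the doses overlapped. The mean of the tested probe sets of Mdm2 gave a difference of 0.14.

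Ccng1 encodes cyclin G1, which recruits the phosphatase PP2A to Mdm2. Its 3 probe sets share 1 source sequence. The brightest, 1420827_a_at, read 11.69, 11.69 and 11.64 in L-LY29 and 11.79 and 11.98 in H-LY29, a difference of -0.21 (SE 0.07), which went to 0.0022 with equal array medians. On 1450016_at the arrays read 11.09, 11.11 and 11.06 in L-LY29 and 9.68 and 9.91 in H-LY29, a difference of 1.29 (SE 0.08). On 1450017_at they read 10.78, 10.87 and 10.86 in L-LY29 and averaged 9.97 (SD 0.04, n = 2) in H-LY29, a difference of 0.86 (SE 0.05). The doses were thus apart by a small step in 1 direction on the brightest probe set and by a larger step in the other direction on both of the rest.

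Btg2, an antiproliferative protein that recruits the deadenylase complex to mRNA, was split in the same manner, with 2 probe sets made from 1 source sequence. On 1416250_at it read 9.78, 9.57 and 9.57 in L-LY29 and 8.20 and 8.41 in H-LY29, a difference of 1.34 (SE 0.11). On 1448272_at it read 7.84, 7.88 and 8.04 in L-LY29 and 9.03 and 9.11 in H-LY29, a difference of -1.15 (SE 0.09). Neither probe set overlapped between the doses, and their mean gave a difference of 0.09.

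Of the 5 members with more than 1 probe set, 4 had at least 2 called probe sets, and in 3 of these 4, Mdm2, Ccng1 and Btg2, the calls went both ways. Over the whole array, calls went both ways in 43.3% of the 4182 genes with 2 or more called probe sets. In the fourth member, Aen, the calls went one way, and 1 of its 4 probe sets, 1451186_at, passed the filter only through H-LY29. Probe sets of 1 gene can read different transcript ends and splice forms, and which end each of these reads was not tested.

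**Figure D2:**
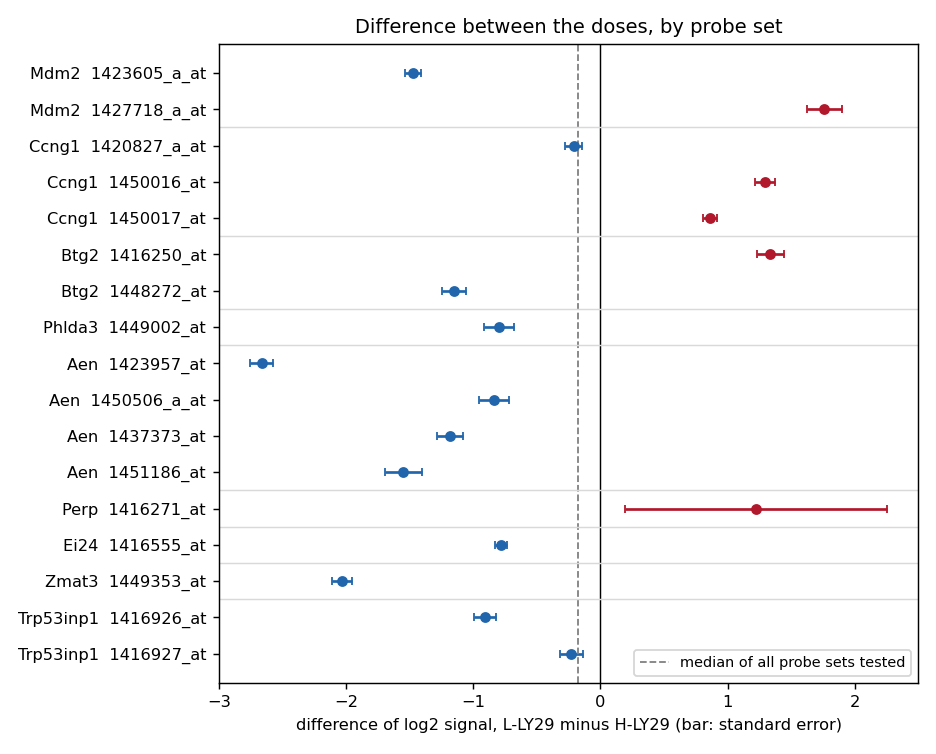
Difference of log2 signal, L-LY29 minus H-LY29 (x axis), with its limma standard error as a bar, for the 17 tested probe sets of the p53 targets (y axis), blue where lower and red where higher in L-LY29. Aen and Zmat3 lie farthest to the left at -2.66 and -2.03, the probe sets of Mdm2, Ccng1 and Btg2 lie on both sides of 0, and Perp has the widest bar (1.03).

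Aen is a nuclease that p53 induces during apoptosis, and it had the largest difference of the 17 tested probe sets. On 1423957_at it read 9.50, 9.38 and 9.33 in L-LY29 and 11.97 and 12.17 in H-LY29, a difference of -2.66 (SE 0.09), or 6.33-fold higher in H-LY29. On 1450506_a_at it read 8.13, 8.10 and 7.88 in L-LY29 and 8.78 and 8.97 in H-LY29, a difference of -0.84 (SE 0.12). The dimmer pair gave the same sign. On 1437373_at the arrays read 4.86, 4.86 and 4.73 in L-LY29 and 6.06 and 5.94 in H-LY29, a difference of -1.18 (SE 0.10). On 1451186_at they read 4.65, 4.39 and 4.33 in L-LY29 and 6.11 and 5.90 in H-LY29, a difference of -1.55 (SE 0.14). The last had an L-LY29 mean of 4.45, under the filter, and passed it only through its H-LY29 signal, so its sign adds no support. The other 3 were lower on every L-LY29 array as well.

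Zmat3, a zinc finger protein that binds RNA and regulates splicing, was second in size. It read 8.93, 8.74 and 8.88 in L-LY29 and 10.86 and 10.91 in H-LY29, a difference of -2.03 (SE 0.08), or 4.08-fold higher in H-LY29. The gap between the doses was many times the range of the arrays within either.

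Trp53inp1, a nuclear cofactor of p53 that also takes part in autophagy, was read by 2 probe sets. On 1416926_at it read 9.42, 9.41 and 9.61 in L-LY29 and 10.34 and 10.44 in H-LY29, a difference of -0.91 (SE 0.09). On 1416927_at it read 6.32, 6.30 and 6.29 in L-LY29 and 6.47 and 6.59 in H-LY29, a difference of -0.23 (SE 0.09), which became 0.24 after quantile normalization. The brighter probe set kept its sign under each scaling, and the dimmer one did not.

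Phlda3 carries a pleckstrin homology domain and competes with Akt for the membrane lipids that PI3K makes, which ties it to the pathway that the compound inhibits. It read 10.32, 10.06 and 10.39 in L-LY29 and 11.12 and 10.99 in H-LY29, a difference of -0.80 (SE 0.12), or 1.74-fold higher in H-LY29. All L-LY29 arrays lay below both H-LY29 arrays.

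Ei24, a protein of the endoplasmic reticulum membrane with a role in autophagy, read 11.02, 10.94 and 10.96 in L-LY29 and 11.74 and 11.77 in H-LY29, a difference of -0.78 (SE 0.05), or 1.72-fold higher in H-LY29. The ranges within each dose were far smaller than this gap.

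Perp, a tetraspan membrane protein of desmosomes that p53 induces in apoptosis, behaved unlike the other members. It read 11.43, 8.34 and 8.50 in L-LY29 and 8.53 and 7.87 in H-LY29, a difference of 1.22 (SE 1.03) with the doses overlapping. The mean was carried by L-LY29 replicate 1, and without that array the difference was 0.22. Replicate 1 exceeded the mean of replicates 2 and 3 by 3.01 for Perp and by -0.20 to 0.29 for the other tested probe sets of the p53 targets. A range over the L-LY29 arrays as wide as that of Perp was found in 34 of the 27001 tested probe sets, 0.126%. Some other p53 targets, picked after their values were seen, had the same order of L-LY29 arrays as Perp. Sfn, an arrest target, was also highest on replicate 1 and lowest on replicate 2, at 7.30, 4.99 and 6.05. Serpinb5, a secreted and surface target below the filter, had the same order at 6.19, 4.46 and 4.81.

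Genes of ocular surface epithelium, a tissue rich in desmosomes, were set beside Perp. Of 24 such genes with a probe set, 23 were highest of the L-LY29 arrays on replicate 1 and 20 were lowest on replicate 2. Replicate 1 exceeded the mean of replicates 2 and 3 by over 1 log2 unit in 18 of them. Trp63 and Ovol1, under the filter, counted among the 23 with excesses of only 0.07 and 0.10. The median excess of replicate 1 over the mean of replicates 2 and 3 was 1.89 over the 24 genes, where the median of all tested probe sets was -0.001. Desmoplakin, Dsp, which anchors keratin at desmosomes, read 9.49, 4.97 and 6.87 in L-LY29 and 4.72 and 4.20 in H-LY29. The desmosomal cadherin Dsc2 read 8.11, 3.85 and 4.40 in L-LY29 and 3.85 and 3.49 in H-LY29. Its mean of 4.74 lay under the filter, so it was not tested. The basal keratin Krt5 read 10.98, 7.72 and 8.44 in L-LY29 and 5.39 and 4.59 in H-LY29. All 3 were highest on the array where Perp was highest. The summed signal of the list, as log2, was 14.82, 12.23 and 13.20 in L-LY29 and 9.22 and 8.88 in H-LY29. Of its 19 tested genes, 14 were called higher in L-LY29. Apart from Krt5, Krt12 and Epcam, the called genes had an H-LY29 mean under the filter, as Krt6b at 4.29 and Calml3 at 2.82. These passed only through their L-LY29 signal and could only come out higher, so their direction adds no support. The part of the epithelial cells in the values of Perp, Sfn and Serpinb5 was not tested.

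**Figure D3:**
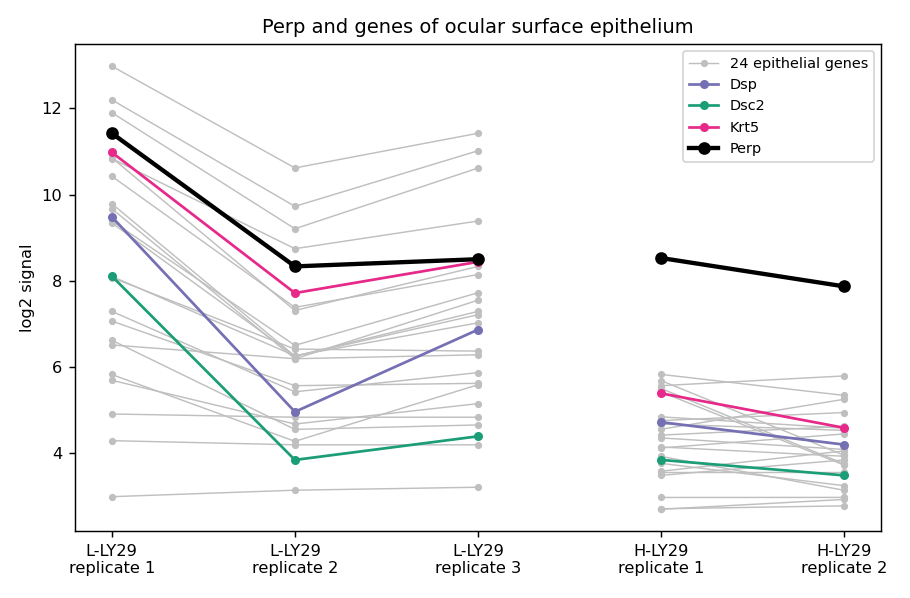
Log2 signal (y axis) of Perp (black), 24 genes of ocular surface epithelium (grey) and, in colour, Dsp, Dsc2 and Krt5 on each array (x axis), with lines joining the values of a gene within a dose and implying no order of arrays. Perp and 23 of the 24 genes were highest of the L-LY29 arrays on replicate 1, and in H-LY29 Perp stayed at 7.87 to 8.53 while the epithelial genes lay lower.

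The other genes of the p53 pathway were described from 6 lists of its regulators and targets, 121 genes in all, of which 107 were tested. One value stood for each gene, that of its brightest probe set. Limma called 24 of the 107 (22.4%) higher and 55 (51.4%) lower in L-LY29, beside 27.1% and 46.6% of all 12935 genes tested, of which 73.8% were called in either direction. Their median difference was -0.54, and that of all genes was -0.26. The scaling of the arrays bore on this split. After quantile normalization, 40 pathway genes were called higher and 46 lower with a median of -0.12, and the median of all genes moved to 0.05. With equal array medians the counts were 35 and 51, with a median of -0.32 for the pathway and -0.05 for all genes. The p53 targets named at the outset kept 4 probe sets higher and 11 lower after quantile normalization, and 4 and 10 with equal medians. Over all probe sets, 11026 were called higher and 9173 lower after quantile normalization, and 10060 and 9949 with equal medians, against 7804 and 11595 as deposited.

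**Figure D4:**
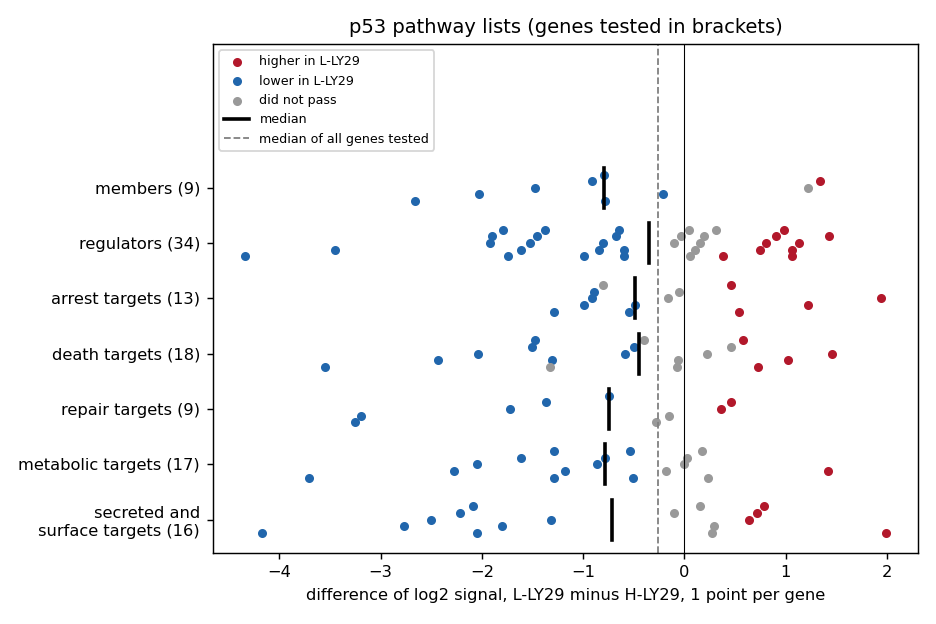
Difference of log2 signal, L-LY29 minus H-LY29 (x axis), for each tested gene of the 9 measured p53 targets and of 6 lists of the p53 pathway (y axis, number tested in brackets), with red for called higher, blue for called lower and grey for not passing. Black bars are list medians, from -0.35 for regulators to -0.78 for metabolic targets, and the dashed line is the median of all genes tested (-0.26). The median of the 9 p53 targets (-0.80) is a description, since they were chosen on this contrast.

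Among regulators of p53, 17 of 34 tested genes were lower in L-LY29, 9 were higher and 8 missed the threshold, with a median of -0.35. After quantile normalization 16 were called higher and 14 lower with a median of 0.12, and with equal array medians 15 and 17. Twist1, a transcription factor that restrains p53, was at 4.47, 4.87 and 4.83 in L-LY29 and 9.04 and 9.10 in H-LY29 (difference -4.34, SE 0.15, adjusted p = 4.84e-05). Its L-LY29 mean of 4.73 lay under the filter of 4.77, so it was tested only because of its H-LY29 signal. Trp73, among those called higher, had an H-LY29 mean of 4.58 and was tested only because of its L-LY29 signal. The directions of Twist1 and Trp73 thus add no support. The acetyltransferases that act on p53 were both lower, Ep300 by a difference of -1.53 (adjusted p = 7.04e-05) and Crebbp by -1.92 (adjusted p = 7.14e-05, but -0.15 with adjusted p = 0.288 on its second brightest probe set), as was their cofactor Jmy at -1.45 (adjusted p = 7.97e-05), which had 1 of its 4 probe sets called higher. Mdm4, the partner of Mdm2, was higher in L-LY29 by 0.80 (SE 0.16, adjusted p = 0.00713), with 2 probe sets called higher and 1 lower.

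Of 13 tested arrest targets, 6 were lower, 4 were higher and 3 missed the threshold. Cdkn1a, the inhibitor of cyclin-dependent kinases known as p21, read 11.37, 11.27 and 11.36 in L-LY29 and 12.48 and 12.75 in H-LY29 (difference -1.28, SE 0.09, adjusted p = 2.05e-04). Its dimmer probe set was called higher by 0.30. Plk2 and Plk3, stress-responsive polo-like kinases, were higher in L-LY29 by 1.94 (adjusted p = 5.80e-04) and 1.22 (adjusted p = 7.09e-04). Rprm, which arrests cells before mitosis, was lower at -0.89 (adjusted p = 7.35e-04).

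Of 18 tested death targets, 8 were lower, 4 were higher and 6 missed the threshold. Ddit4, a stress-induced inhibitor of mTORC1, read 10.21, 9.69 and 9.95 in L-LY29 and 13.47 and 13.54 in H-LY29 (difference -3.55, SE 0.16, adjusted p = 6.77e-05), or 11.8-fold higher in H-LY29. The death receptor Tnfrsf10b was lower in L-LY29 at -2.43 (adjusted p = 1.43e-04), and so was Eda2r, a receptor of the same family, at -2.03 (adjusted p = 7.72e-05). The inflammasome adaptor Pycard was higher by 1.03 (adjusted p = 4.18e-04). The BH3-only genes Bbc3 and Pmaip1 were named whatever their values, so their size is not set against the genes above. Bbc3 was higher by 0.58 (SE 0.15, adjusted p = 0.0171). Its adjusted p was 0.0553 without L-LY29 replicate 1 and 0.0736 with the replicate number as a block. Pmaip1 had a difference of 0.46 that did not pass (adjusted p = 0.132), and of 0.83 without H-LY29 replicate 1. Pmaip1 passed at 0.95 after quantile normalization (adjusted p = 0.00835) and at 0.67 with equal array medians (adjusted p = 0.0363).

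Of 9 tested repair targets, 5 were lower, 2 were higher and 2 missed the threshold. Ddb2, which recognises ultraviolet lesions, was lower at -3.19 (SE 0.16, adjusted p = 8.33e-05), and so was Fancc, of the crosslink repair core complex, at -3.25 (SE 0.25, adjusted p = 2.43e-04). Of the 3 probe sets of Fancc 1 was called, and the second brightest gave 0.0853 (adjusted p = 0.661). Polh, a polymerase that copies past lesions, was lower at -1.72 (adjusted p = 1.95e-04). Rrm2b, the p53-induced subunit of ribonucleotide reductase, was lower at -1.37 (adjusted p = 5.44e-05) on its brightest probe set and higher by 3.60 on the next, and the mean of its probe sets gave -0.08, which did not pass (adjusted p = 0.478).

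Of 17 tested metabolic and antioxidant targets, 11 were lower, 1 was higher and 5 missed the threshold, with a median of -0.78. The median was -0.37 after quantile normalization and -0.31 with the second brightest probe set, and the genes called higher were 4 after quantile normalization and 3 with equal array medians. Tigar, which lowers glycolytic flux, read 4.84, 5.70 and 5.54 in L-LY29 and 9.13 and 9.01 in H-LY29 (difference -3.71, SE 0.28, adjusted p = 2.42e-04). Sesn2, a stress-induced inhibitor of mTORC1, was lower at -2.05 (adjusted p = 2.79e-04), and Cpt1c, a carnitine palmitoyltransferase of neurons, at -1.29 (adjusted p = 1.83e-04). The gene that was higher was Abhd4, a lipase of N-acyl phospholipids, by 1.42 (adjusted p = 1.18e-04).

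Of 16 tested secreted and surface targets, 8 were lower, 4 were higher and 4 missed the threshold. Igfbp3, which binds insulin-like growth factors, read 6.60 to 7.47 in L-LY29 and 11.09 and 11.30 in H-LY29 (difference -4.17, SE 0.27, adjusted p = 1.56e-04). Ier3, an early response gene, was lower at -1.32 (adjusted p = 1.16e-04), and Pltp, a phospholipid transfer protein, at -1.80 (adjusted p = 1.96e-04). Rap2b, a small GTPase, was lower at -2.50 (adjusted p = 9.72e-05) on its brightest probe set and higher by 2.38 on the next.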

How the data were processed

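RNA of cultured mouse optic nerves was measured on Affymetrix GeneChip mouse arrays, with 3 arrays at L-LY29 and 2 at H-LY29 by their labels. Per the study's methods, normalisation by the authors used MAS-5 in Agilent GeneSpring. The deposited values are on the log2 scale, and no source used here gives the scaling target. Of 45101 probe sets, 34958 name 1 gene, 932 several and 9211 none. Arrays have no read depth, and their number limits precision.

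Values were used as deposited. Probe sets with a mean under the 40th percentile (4.77) were left out. The contrast of doses was fitted with limma (version 3.58.1, R 4.3.3) using lmFit and a trended eBayes (two-sided, Benjamini-Hochberg over all features, called at an adjusted p under 0.05), tested on simulated data. All probe sets of the 10 genes are given, with no p because the choice used this contrast. From each p53 list up to 4 genes with the smallest adjusted p are named, with Cdkn1a, Bbc3 and Pmaip1. Mdm4, Trp73, Dsp, Dsc2, Fas, Sesn1, Sesn3, Sfn, Serpinb5 and the marker and proliferation genes given as examples were chosen after their values were seen. The members and the lists were chosen with earlier results of these data known. Alternatives were other filters, a floor, 2 scalings, other choices of probe set, no trend, the replicate number as a block and each array left out in turn. Promoter windows were read from RefSeq (GRCm38.p6).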

Additional observations from a re-analysis of the deposited data

How the results depend on the processing

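The number of arrays limits the precision, and values near the filter are the least sure. Of 215 values of the member probe sets under the alternatives, 204 kept their direction and their side of the threshold, 6 lost a call, 3 gained one and 2 reversed. The reversals were Ccng1 1420827_a_at at 0.0022 with equal array medians and Trp53inp1 1416927_at at 0.24 after quantile normalization. Leaving out each array in turn, the call of Ccng1 1420827_a_at was lost without any single L-LY29 array and without H-LY29 replicate 2. Perp had its lowest difference, 0.22, without L-LY29 replicate 1.

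With 1 value per gene, the choice of probe set turned the sign. The second brightest probe set gave 1.76 for Mdm2, 1.29 for Ccng1, -1.15 for Btg2, 0.30 for Cdkn1a, 3.60 for Rrm2b, 0.0853 for Fancc and 2.38 for Rap2b. The mean of probe sets gave 0.14 for Mdm2 and 0.65 for Ccng1, plain _at probe sets gave 1.29 for Ccng1, and equal medians gave it 0.0022. Over all genes the second brightest probe set called 1927 higher and 2541 lower, against 3510 and 6032, among the fewer genes that have one, and no filter called 5299 higher. For the pathway, quantile normalization called 40 higher and the second brightest probe set 25 lower. Its median was -0.12 after quantile normalization, -0.32 with equal medians, -0.33 with the mean and -0.15 with the second brightest. The median turned positive for regulators (0.12) and death targets (0.0257) after quantile normalization, and for arrest (0.30) and repair targets (0.0853) with the second brightest. Apart from changes that follow from fewer genes tested, the cause was not tested.

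Same-numbered arrays of the doses did not deviate together (correlations 0.02 and 0.05). With 2 H-LY29 arrays their deviations mirror each other, so this check cannot exclude pairing. Whether the numbers pair the arrays was not settled. With the replicate number as a block, 2950 genes were called higher and 5409 lower, 4 and 10 of the member probe sets, and 23 and 53 of the pathway genes with a median of -0.51. Ccng1 1420827_a_at lost its call at -0.19 and Bbc3 at 0.60.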

Other observations

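Fas, the death receptor induced by p53, had a wide spread within L-LY29 and the same order of arrays as Perp, but with replicate 2 apart. It read 9.17, 6.49 and 8.58 in L-LY29 and 9.28 and 9.53 in H-LY29, a difference of -1.33 that did not pass in limma (adjusted p = 0.204). All L-LY29 arrays lay below both H-LY29 arrays, with replicate 2 the farthest. This was not particular to Fas. The median signal of the astrocyte markers was also lowest on replicate 2 of L-LY29 (9.17, 7.80 and 8.93). So was that of oligodendrocyte precursor markers (7.39, 6.86 and 7.28) and that of the ocular surface epithelium genes (8.73, 6.23 and 6.95). The medians of pericyte, oligodendrocyte and neuron markers were also lowest there. Those of microglia (8.78, 9.04 and 8.90), endothelium and fibroblasts were not. The part of these cells in the value of Fas was not tested.

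Some values were repeated to the last digit between arrays of a dose, as in 3 of the 18 probe sets of the p53 targets. Repeats also crossed the doses. Sesn3 read 9.4771 on L-LY29 replicates 1 and 3 and on H-LY29 replicate 1. Sesn1, a stress-induced antioxidant gene, read 8.74 on all 3 L-LY29 arrays with no difference between them, and 9.41 and 9.07 in H-LY29. How such repeats arose was not tested, and they make the spread within a dose look smaller.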
